A study of Vernicia fordii and Jatropha curcas with 4 samples.

Results

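Transcripts of starch breakdown were followed through 10 Arabidopsis loci in seeds of the physic nut, Jatropha curcas, and of the tung tree, Vernicia fordii, which both store oil. The members are all contigs, that is assembled transcript sequences, whose Arabidopsis locus code in the deposited tables equals that of GWD1, SEX4, BAM1, BAM3, AMY3, ISA3, DPE1, PHS1, PHS2 or DPE2. In Jatropha there were 26 such contigs of 45411 in all, and in Vernicia 17 of 49582. They covered 9 of the 10 loci in each species, among 13319 Jatropha and 13333 Vernicia loci with at least 1 contig. No contig in either table carried AT4G17090, the code of BAM3, so BAM3 has no value here.

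Polyadenylated RNA was sequenced from 4 libraries of seeds of 3-year-old trees. The labels name the endosperm, the nutritive tissue of the seed, as source and the seed as tissue. The labels give 29 and 37 days after pollination for Jatropha and 90 and 135 days for Vernicia, the earlier day of each species being when oil begins to build up and the later when it does so fast. Each library was made from mixed RNA of 3 seeds, no genotype or treatment is named, and no stage has a second library, so no value below has an error or a p-value. The 2 value columns of each table are numbered 7 and 8, and since no label ties a number to a stage, a difference between library 7 and library 8 has no direction in time here.

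The transitory starch of leaves is broken down mainly inside the plastid. In Arabidopsis leaves, dikinases first add phosphate to the glucans at the granule surface, which loosens them, and phosphatases take it off again so that beta-amylases can release maltose. Debranching enzymes and alpha-amylase open the branched glucans, phosphorylases release glucose 1-phosphate, and maltose is exported to the cytosol, where a glucosyltransferase takes it up. Seeds that store oil often hold starch for a time while they fill, so these enzymes stand beside the supply of carbon to oil. Roles given below are those known in Arabidopsis.

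All values are RPKM, reads scaled to contig length and library size, which allows levels of different loci to be set side by side within a library. The RPKM of the contigs of a locus were summed. Where several contigs are pieces of 1 transcript such a sum overstates the level, so the highest contig is given beside it where it matters. Differences are log2((library 8 + 1)/(library 7 + 1)) of the sums, which understates the change of low loci, and 2-fold and 4-fold thresholds are set on this scale. The typical locus was lower in library 8: the median difference over all loci at 1 RPKM or more in either library was -0.93 in Jatropha (12931 loci) and -0.48 in Vernicia (12896 loci). Members are read against this shift. The species are read against each other only by their own differences and ranks, because no shared normalization of the tables is stated.

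The seed label was checked with lists of Arabidopsis locus codes written from general knowledge, since the tables hold no gene names. Storage globulins, the main seed storage proteins, had contigs for 4 of 4 loci in Jatropha, with sums of 647 RPKM in library 7 against 174213 in library 8, and for 3 of 4 in Vernicia, with 355 and 69978. Oleosins, the coat proteins of oil bodies, had 3 of 4 loci in Jatropha with 956 and 21181 RPKM, and 4 of 4 in Vernicia with 152 and 10535. None of these was at 0 in any library. Green tissue loci (Rubisco small subunit and light harvesting proteins) summed to 47.3 and 120.4 RPKM over 3 of 9 loci in Jatropha, 1 of them at 0 in library 8, and to 90.4 and 206 over 5 of 9 in Vernicia, 2 of them at 0 in library 7. Flavonoid loci of the seed coat summed to 29.6 and 6.52 RPKM over 3 of 4 loci in Jatropha and to 45.9 and 60.6 over 4 of 4 in Vernicia. By locus, 1 of 3 green tissue loci was higher in library 8 in Jatropha and 4 of 5 in Vernicia. For the flavonoid loci these counts were 0 of 3 and 1 of 4. The higher green tissue sum in Jatropha and the higher flavonoid sum in Vernicia thus each came from 1 locus. In Vernicia the higher green tissue sum came nearly all from AT1G67090, with 72.4 and 192 RPKM in libraries 7 and 8. The others that were higher there reached at most 1.74 RPKM in library 8, and AT2G34430 was lower, at 17.7 and 9.35. The sums of the storage globulins and of the oleosins were thus higher in library 8 of both species. By locus, 3 of 4 globulins and 2 of 3 oleosins were higher there in Jatropha, and 3 of 3 and 4 of 4 in Vernicia. The counts of member loci past 2-fold are also given below with library totals set equal outside these 2 lists. A lower level in such bulk tissue may be fewer cells of a type or less RNA per cell, which cannot be told apart.

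In Jatropha 6 of the 9 starch breakdown loci with contigs were higher in library 8, where 19.7% of all loci were higher by any amount. Their summed level was 84.8 RPKM in library 7 against 147 in library 8, or 1.73 times as much. Of the 9 loci, 4 were at least 2-fold higher in library 8 (GWD1, SEX4, BAM1 and DPE2), against 7.15% of all loci. None was at least 2-fold lower, against 46.9% of all loci. The median difference of the 9 was 0.56, and all 9 lay above the median of all loci. With the library totals set equal outside the storage globulin and oleosin loci, an alternative added after seeing the data, 6 of the 9 were at least 2-fold higher and 0 lower. Of all loci 15.1% were higher and 24.1% lower by that measure. With median-ratio scaling 6 were also higher and 0 lower, against 17.3% and 21.5% of all loci. With trimmed mean scaling the counts were again 6 and 0, against 15.0% and 24.2%.

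In Vernicia the members lay in both directions. Their sum was 249 RPKM in library 7 against 286 in library 8, or 1.15 times as much, but this came from BAM1, SEX4 and PHS1, while the other 6 were lower. Of all Vernicia loci 25.2% were higher in library 8 by any amount. As deposited, only PHS1 was at least 2-fold higher in library 8, against 7.7% of all loci, and GWD1, DPE1 and DPE2 were at least 2-fold lower, against 18.8% of all loci. The median difference was -0.66, near the -0.48 of all loci, and 3 of the 9 lay above that median. With totals set equal outside the storage globulin and oleosin loci, 1 was at least 2-fold higher and 3 lower, against 7.73% and 18.5% of all loci. With median-ratio scaling 2 were at least 2-fold higher and 1 lower, against 12.7% and 7.9% of all loci, and with trimmed mean scaling also 2 and 1, against 11.1% and 9.48%.

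**Figure D1:**
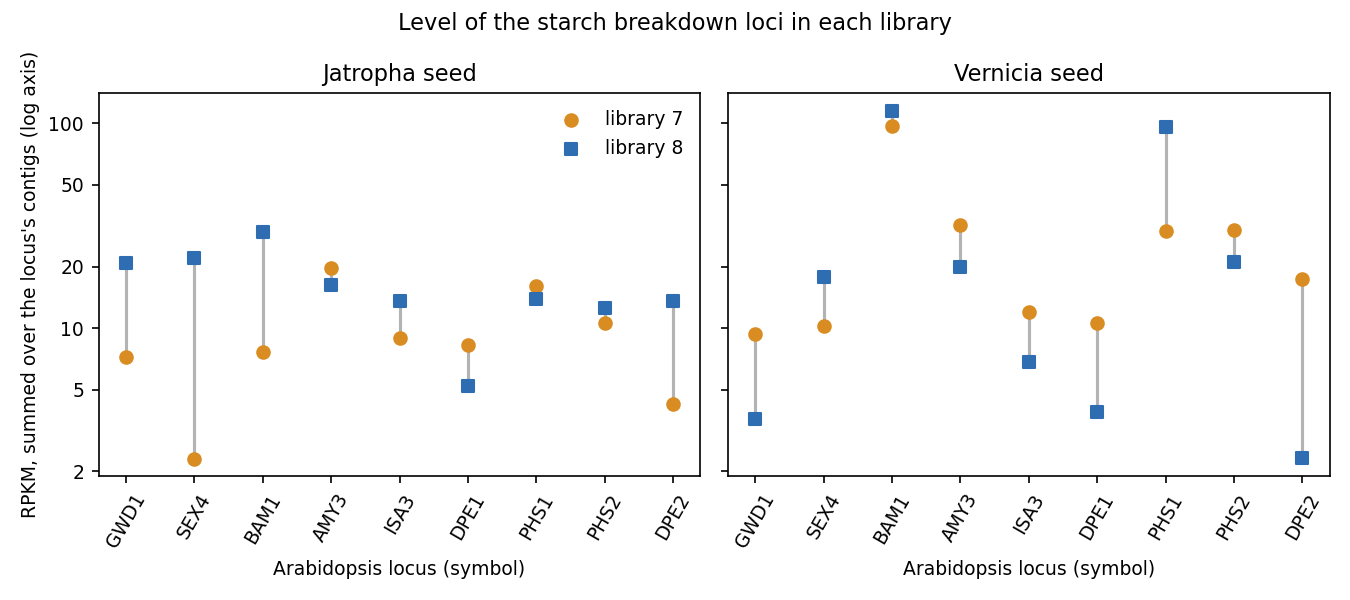
Level of each starch breakdown locus with a contig, as RPKM summed over its contigs on a log axis, in library 7 (circles) and library 8 (squares) of each species, with 1 library per symbol and no replicates. In Jatropha the levels lie between 2.31 and 29.5 RPKM, and in Vernicia BAM1 at 97.1 and 115 RPKM and PHS1 at 96 RPKM in library 8 stand above the others.

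The first step, phosphorylation of the granule surface, is the work of GWD1 (AT1G10760), glucan water dikinase, whose loss in Arabidopsis gives a starch excess. In Jatropha its sum was 7.21 RPKM in library 7 against 20.7 in library 8, 2.87 times as much and a log2 difference of 1.40. All 4 contigs were higher in library 8. The main contig, comp21991_c0, had 4.78 and 11.8 RPKM, and comp21991_c1, whose name shares its component number, had 1.08 and 4.19. The contig comp19992_c0 had 1.35 and 4.09 RPKM, and comp1470444_c0 was listed at 0 in library 7 and at 0.65 in library 8. Of all Jatropha loci, 4.95% had a larger difference than GWD1. In Vernicia the order was the opposite, with 9.4 RPKM in library 7 against 3.59 in library 8 (log2 difference -1.18). Its 3 contigs, all of component comp25233, were all lower in library 8. The highest of them, comp25233_c1, had 5.7 and 2.69 RPKM, which is 2.12-fold in plain RPKM and -0.86, or under 2-fold, on the log2(RPKM + 1) scale. After scaling to the median locus the Vernicia sum differed by -0.75 and did not reach 2-fold either.

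SEX4 (AT3G52180) is the phosphoglucan phosphatase that removes the phosphate again. It had 1 contig in each species. In Jatropha, comp25500_c0 had 2.31 RPKM in library 7 against 21.9 in library 8, a 9.49-fold excess and a log2 difference of 2.79. This was the largest difference among the 9 Jatropha members, in either direction, and 1.54% of all loci had a larger one. SEX4 was the lowest of the 9 members in library 7, where 12.1% of all loci above 0 were lower, and the second highest in library 8, where 82% were. In Vernicia, comp8645_c0 had 10.2 and 17.8 RPKM, a log2 difference of 0.74 that passed 2-fold only after scaling (1.25 with median-ratio and 1.11 with trimmed mean scaling).

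The pair of enzymes that put phosphate on and take it off therefore stood in different proportions in the libraries. A ratio within a library does not depend on how the libraries are scaled to each other. GWD1 was 3.12 times SEX4 in Jatropha library 7 and 0.944 times in library 8. In Vernicia it was 0.92 times in library 7 and 0.202 times in library 8. In both species library 8 thus had less GWD1 per SEX4, by sums. With the highest contig alone the log2 ratio in Jatropha library 8 was -0.85, against -0.08 for the sums, and in Vernicia library 7 -0.74, against -0.11, so the sizes of these ratios depend on how the contigs of GWD1 are counted.

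BAM1 (AT3G23920) is a plastid beta-amylase, which cuts maltose from the ends of glucan chains. It was the most abundant member in Jatropha library 8 and in both Vernicia libraries. In Jatropha its sum was 7.66 RPKM in library 7 against 29.5 in library 8 (log2 difference 1.82), which 3.41% of all loci exceeded. The contig comp17310_c0 carried this difference, with 5.44 and 28.6 RPKM, while comp290462_c0 was lower in library 8, at 2.22 and 0.86. In Vernicia BAM1 was high in both libraries, with 97.1 RPKM in library 7 against 115 in library 8, above 92.7% and 95% of all loci in these libraries. The log2 difference was 0.24. Nearly all of it was comp24349_c2, with 92.5 and 113 RPKM, while comp195482_c0 had 3.31 and 1.31 and comp11055_c0 1.29 and 0.44. Other contigs of component comp24349 carried codes of other loci, AT4G33740, AT1G65020 and AT5G06600, and nothing used here says whether reads were shared among them. All 4 of those contigs with other codes were lower in library 8, while comp24349_c0, which has no code, was higher, with 8.05 and 11.8 RPKM.

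AMY3 (AT1G69830), the plastid alpha-amylase, cuts inside the glucan chains. It was the most abundant member in Jatropha library 7. Its sum was 19.6 RPKM there and 16.2 in library 8, a log2 difference of -0.26. The main contig, comp22603_c0, was lower in library 8, with 17.4 and 10.01 RPKM, whereas the other 3 were higher there. These were comp289905_c0 with 1.1 and 3.03 RPKM, comp467935_c0 with 0.49 and 1.86, and comp588419_c0 with 0.61 and 1.31. In Vernicia its only contig, comp25247_c0, had 32 RPKM in library 7 against 19.9 in library 8 (log2 difference -0.66), or -0.18 from the median locus.

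ISA3 (AT4G09020), an isoamylase-type debranching enzyme, cuts the branch points. Its single contig in Jatropha, comp7548_c0, had 8.93 RPKM in library 7 against 13.6 in library 8 (log2 difference 0.56). In Vernicia comp22284_c0 had 12 and 6.8 RPKM, a log2 difference of -0.74. ISA3 was thus above the median locus by 1.49 in Jatropha and below it by a log2 difference of -0.26 in Vernicia.

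**Figure D2:**
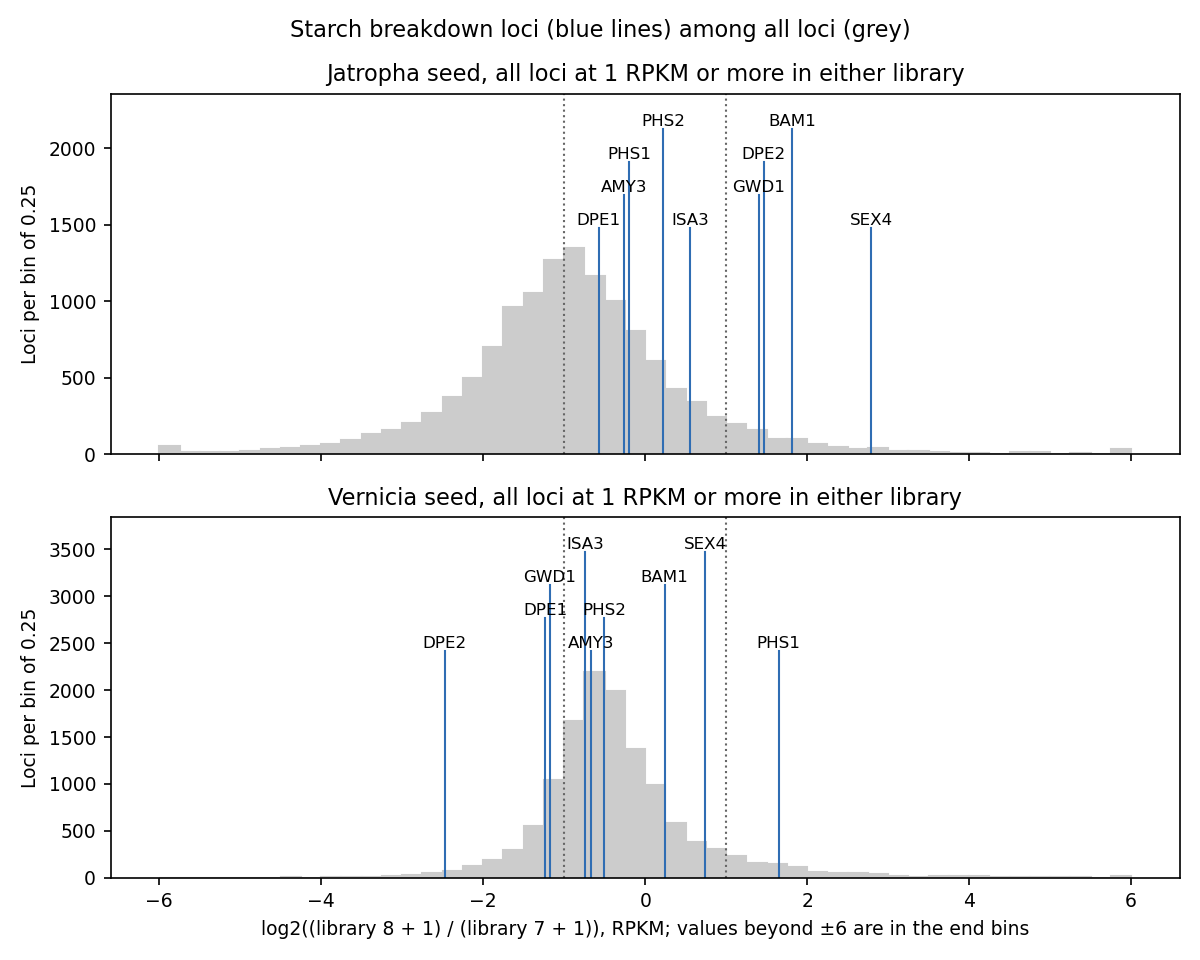
Difference of each starch breakdown locus between the libraries (blue lines) over the histogram of all loci at 1 RPKM or more in either library (grey, bins of 0.25), on the log2(RPKM + 1) scale, with dotted lines at 2-fold. In Jatropha all 9 members lie above the median of all loci (-0.93), while in Vernicia they lie on both sides of it (-0.48), from DPE2 at -2.47 to PHS1 at 1.65.

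The short chains left by the beta-amylases are the substrate of DPE1 (AT5G64860), the plastid disproportionating enzyme, which joins and splits maltotriose. It was lower in library 8 of both species as deposited. In Jatropha comp27098_c0 had 8.26 RPKM in library 7 against 5.23 in library 8 (log2 difference -0.57), the lowest of the 9 Jatropha members, which became 0.28 after median-ratio scaling. In Vernicia comp22043_c0 had 10.6 and 3.92 RPKM, a log2 difference of -1.24. Of all Vernicia loci 89% had a higher difference, though after median-ratio scaling it was -0.80 and within 2-fold.

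PHS1 (AT3G29320) is the plastid alpha-glucan phosphorylase, which releases glucose 1-phosphate from chain ends. In Vernicia it had the largest excess in library 8 of the 9 members, with 29.9 RPKM in library 7 and 96 in library 8. The log2 difference was 1.65, and 3.98% of all loci exceeded it. Both large contigs showed it, comp25877_c0 with 18.3 and 70.6 RPKM and comp24207_c0 with 11 and 25.4. The remaining contig, comp2096156_c0, had 0.59 RPKM in library 7 and was listed at 0 in library 8. In Jatropha the sum hardly differed, at 16 and 13.8 RPKM and a log2 difference of -0.20, but its contigs did. The main contig, comp27557_c1, was higher in library 8, with 7.99 and 12.2 RPKM, and comp27557_c0 had 0.92 and 1.06. By contrast comp309181_c0 had 4.08 and 0.45 RPKM and comp625_c0 3.02 and 0.16, which are 9.07-fold and 18.9-fold lower in library 8. The sign of the Jatropha PHS1 difference therefore depended on the contigs counted, with -0.20 for the sum and 0.55 for the highest contig.

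PHS2 (AT3G46970) is the cytosolic phosphorylase. In Jatropha its 5 contigs summed to 10.6 RPKM in library 7 against 12.5 in library 8, a log2 difference of 0.23. The main contig, comp25908_c1, had 7.87 and 9.41 RPKM. Of the others, 3 were higher in library 8 and stayed at or under 1.24 RPKM, and comp1776250_c0 had 1.17 RPKM in library 7 and was listed at 0 in library 8. In Vernicia the sum was 30.2 and 20.9 RPKM, a log2 difference of -0.51, or -0.028 from the median locus. All 3 Vernicia contigs were lower in library 8, comp15314_c0 with 19.9 and 17.5 RPKM, comp19854_c0 with 6.92 and 2.44, and comp19527_c0 with 3.37 and 0.96.

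The plastid and the cytosolic phosphorylase kept near levels in 3 of the 4 libraries. PHS1 was 1.52 times PHS2 in Jatropha library 7, 1.11 times in Jatropha library 8 and 0.99 times in Vernicia library 7. In Vernicia library 8 it was 4.58 times PHS2.

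DPE2 (AT2G40840), the cytosolic glucosyltransferase that uses the exported maltose, was the member with the widest gap between the differences of the 2 species. In Jatropha the sum of DPE2 was 4.28 RPKM in library 7 against 13.6 in library 8 (log2 difference 1.46), and all 4 contigs were higher in library 8. The main contig, comp23961_c0, had 3.94 and 9.01 RPKM. The other 3 were comp13323_c1 with 0.21 and 2.09 RPKM, comp1030214_c0 with 0.06 and 1.38, and comp13323_c0 with 0.07 and 1.09. In Vernicia its only contig, comp25112_c0, had 17.5 RPKM in library 7 against 2.32 in library 8, a 7.52-fold deficit and a log2 difference of -2.47. It was above 59.2% of all loci in library 7 and above 17.2% in library 8, and for 1.05% of all loci the difference was more negative. The deficit passed 2-fold under every pseudocount and scaling tried, and 4-fold as deposited.

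The order of the plastid and the cytosolic transferase was not the same in the 2 libraries of either species. DPE1 was 1.93 times DPE2 in Jatropha library 7, and DPE2 was 2.59 times DPE1 in library 8. In Vernicia DPE2 was 1.65 times DPE1 in library 7, and DPE1 was 1.69 times DPE2 in library 8. The signs of these log2 ratios were the same with pseudocounts of 0.1 and 5 RPKM and with the highest contig.

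**Figure D3:**
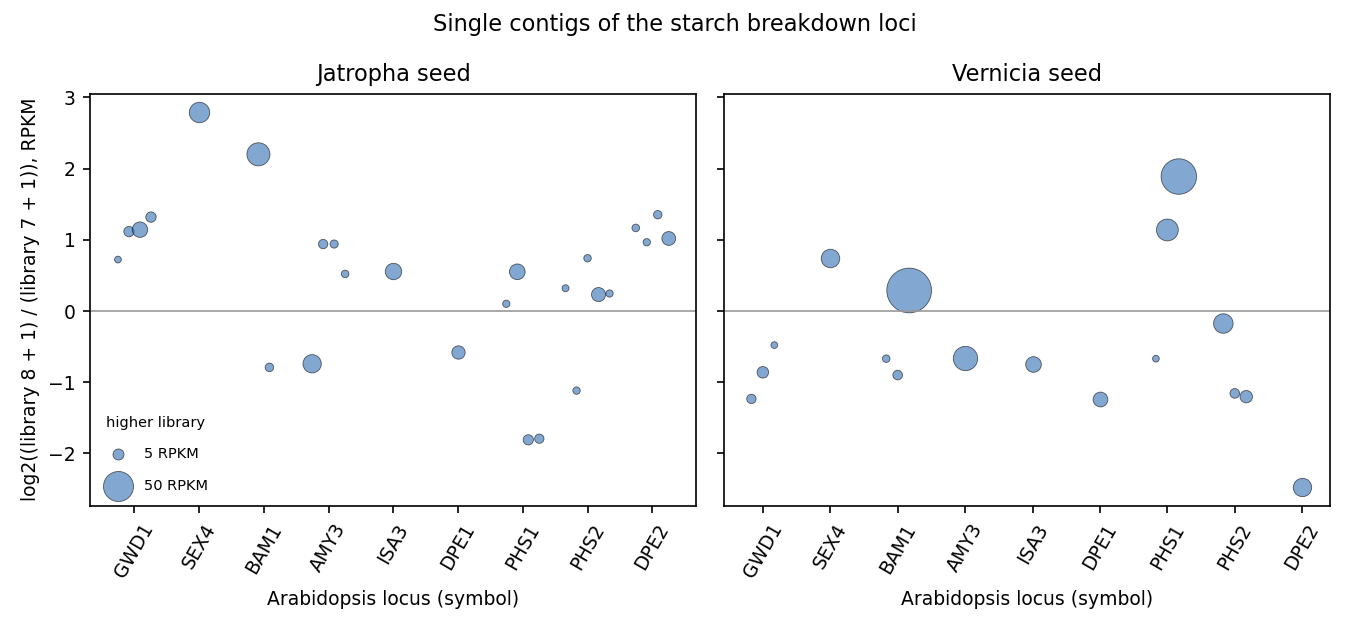
Difference of every single contig of the starch breakdown loci on the log2(RPKM + 1) scale, with point area growing with the RPKM of its higher library. The 4 contigs of GWD1 and of DPE2 in Jatropha all lie above 0, the 3 of GWD1 and of PHS2 in Vernicia all lie below it, and those of PHS1 in Jatropha lie on both sides.

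In Jatropha 20 of the 26 contigs were higher in library 8 and 6 lower, and in Vernicia 4 of the 17 were higher and 13 lower. Of all contigs with a locus code, 26.4% were higher and 73.4% lower in Jatropha, while for Vernicia these shares were 27.4% and 72.5%. Of the members, 24 Jatropha contigs reached 1 RPKM in either library, of which 8 were at least 2-fold higher and 3 at least 2-fold lower in library 8, as did 15 Vernicia contigs, of which 2 were higher and 5 lower by that measure. Among all contigs with a code at 1 RPKM or more, 8.38% were at least 2-fold higher and 43.2% lower in Jatropha, and 8.13% and 19.4% in Vernicia. The members had more contigs in Jatropha, where GWD1, AMY3, PHS1 and DPE2 had 4 contigs each and PHS2 had 5, while 16.6% of all Jatropha loci had 3 or more. In Vernicia GWD1, BAM1, PHS1 and PHS2 had 3 contigs each and the other 5 had 1, while 13.3% of all Vernicia loci had 3 or more. Contigs of 1 locus may be pieces of a transcript, alleles or gene copies, and the tables do not say which.

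The share of each locus in the summed RPKM of the 9 is free of scaling between libraries. In Jatropha library 7 the leading loci were AMY3 with 23.1%, PHS1 with 18.9% and PHS2 with 12.4%. In library 8 they were BAM1 with 20.04%, SEX4 with 14.9% and GWD1 with 14.1%, while AMY3 held 11% and PHS1 9.41%. SEX4 had held 2.72% in library 7. Shares of loci with several contigs depend on how these are counted: by the highest contig alone the leading loci of Jatropha were AMY3 with 26%, ISA3 with 13.3% and DPE1 with 12.3% in library 7, and BAM1 with 23.5%, SEX4 with 18% and ISA3 with 11.2% in library 8. In Vernicia BAM1 held 39% in library 7 and 40.2% in library 8, and PHS1 held 12% and 33.5%, so these loci together made up most of the sum in library 8. By the highest contig alone BAM1 held 42.3% and 44.5% in Vernicia, and PHS1 8.38% and 27.7%. The Vernicia shares that follow are again of the sums. AMY3 held 12.9% in library 7 and 6.94% in library 8, and DPE2 7.01% and 0.811%.

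**Figure D4:**
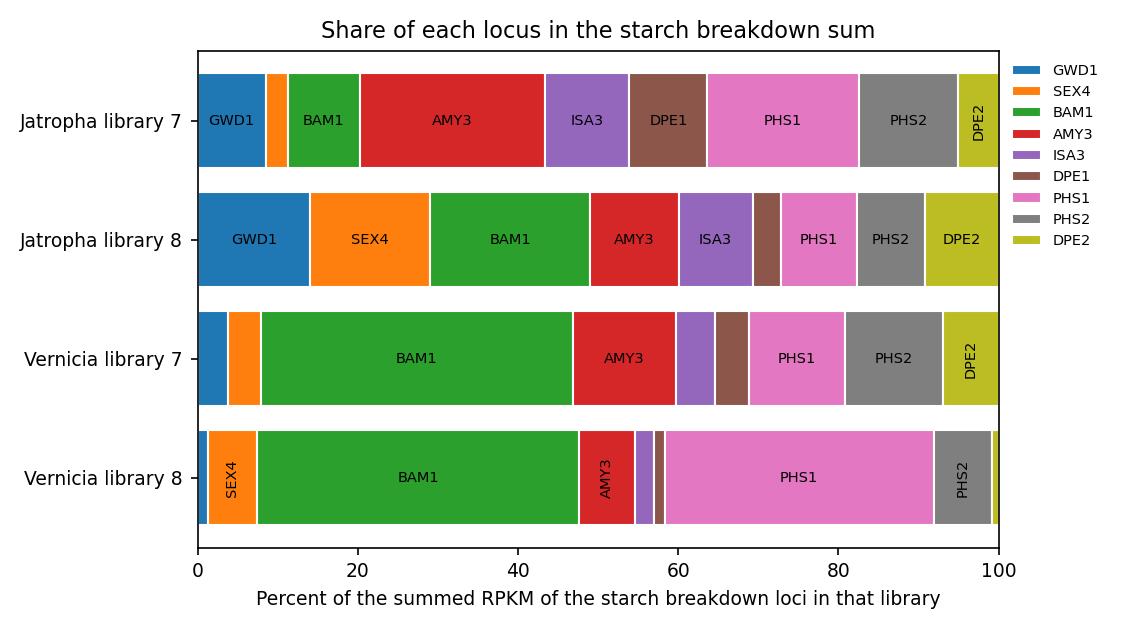
Share of each starch breakdown locus in the summed RPKM of the 9 loci with contigs, in percent, with 1 bar per library. SEX4 takes 2.72% in Jatropha library 7 and 14.9% in library 8, and PHS1 12% and 33.5% in Vernicia libraries 7 and 8.

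The levels of the 9 loci spanned 8.48-fold in Jatropha library 7 and 5.63-fold in library 8, and 10.3-fold and 49.6-fold in Vernicia libraries 7 and 8. By summed RPKM, in descending order, they were AMY3, PHS1, PHS2, ISA3, DPE1, BAM1, GWD1, DPE2 and SEX4 in Jatropha library 7, and BAM1, SEX4, GWD1, AMY3, PHS1, ISA3, DPE2, PHS2 and DPE1 in library 8. In Vernicia library 7 the order was BAM1, AMY3, PHS2, PHS1, DPE2, ISA3, DPE1, SEX4 and GWD1, and in library 8 BAM1, PHS1, PHS2, AMY3, SEX4, ISA3, DPE1, GWD1 and DPE2. Without replicates no pair of neighbours in these orders can be called different. By the highest contig ISA3 at 8.93 RPKM and DPE1 at 8.26 came before PHS1 at 7.99 and PHS2 at 7.87 in Jatropha library 7, and ISA3 at 13.6 and PHS1 at 12.2 came before GWD1 at 11.8 in library 8. In Vernicia library 8 AMY3 at 19.9 RPKM and SEX4 at 17.8 came before PHS2 at 17.5 by that count. BAM1 led in 3 of the 4 orders by either count.

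Set side by side, 2 loci (SEX4 and BAM1) were higher in library 8 of both species, and 2 (AMY3 and DPE1) were lower in both as deposited. GWD1, ISA3, PHS2 and DPE2 were higher in Jatropha and lower in Vernicia, and PHS1 was the reverse. Of the 11054 loci at 1 RPKM or more in both species, 6.32% were higher in both, 63.9% lower in both, 12.4% higher in Jatropha and lower in Vernicia, and 17.3% the reverse. After median-ratio scaling AMY3, DPE1 and PHS1 of Jatropha were higher in library 8 as well, at 0.67, 0.28 and 0.72, and PHS2 of Vernicia was at 0.0019, so these signs depend on the scaling. Within each species the signs of SEX4, BAM1, GWD1, ISA3 and DPE2 held under every pseudocount and scaling run. No label says that the numbers 7 and 8 stand for corresponding stages in the 2 trees. The storage globulin and oleosin sums were higher in library 8 of both, but whether the stages correspond was not tested.

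A further 16 Arabidopsis loci, of starch breakdown or of the protein families of its enzymes, are given beside the members. They were listed by code from general knowledge and are not annotated in the tables, and some may not be active enzymes of starch breakdown. Of these, 14 had a contig in Jatropha and 15 in Vernicia, all at 1 RPKM or more in either library. In Jatropha none was at least 2-fold higher in library 8, against 7.15% of all loci, and 5 were at least 2-fold lower, against 46.9%, with a median difference of -0.45. After median-ratio scaling 3 were higher, against 17.3% of all loci, and 3 lower, against 21.5%. After trimmed mean scaling 2 were higher, against 15.0%, and 4 lower, against 24.2%. In Vernicia 1 was higher, against 7.7%, and 1 lower, against 18.8%, with a median of -0.52. Median-ratio scaling gave 2 higher and 0 lower in Vernicia, against 12.7% and 7.9% of all loci. Trimmed mean scaling gave 2 and 1, against 11.1% and 9.48%. The most abundant in Jatropha were AT5G18670, with 168 RPKM in library 7 against 87.1 in library 8, and AT4G25000, with 19.2 and 16.6. The largest excess there was that of AT5G26570, with 4.51 and 9.81 RPKM, which is 2.18-fold in plain RPKM but 0.97, just under 2-fold, on the log2(RPKM + 1) scale. The largest deficit was that of AT5G55700, with 18.4 and 2.56 RPKM and -2.45. In Vernicia AT5G18670, with 38.2 and 81 RPKM, was both the most abundant and had the largest excess, at 1.06, followed in abundance by AT4G15210 with 31.2 and 17.3. The largest deficit was that of AT4G24450, with 13 and 4.22 RPKM and -1.42.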

How the data were processed

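RPKM values of assembled contigs, to 2 decimals, were deposited in a table for each species, some contigs with an Arabidopsis locus code. Per the labels' protocols, libraries were directional and made from polyadenylated RNA. The submitters' processing notes name Bowtie and edgeR with no role. The assembler, the counting and how codes were assigned are not stated there. RPKM sums were 1104588 and 817400 for Jatropha libraries 7 and 8, and 676071 and 751745 for Vernicia. Read totals are unknown, so no counting error is given. Among low contigs (0.4 to 1.5 RPKM in both libraries) the commonest ratio of library 7 over 8 was 1.11 in Jatropha and 0.93 in Vernicia. That hints at near depths only if it marks equal read numbers, and a window equal for both libraries itself favours ratios near 1.

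Contigs were summed by locus code, and loci at 1 RPKM or more in either library were compared on log2(RPKM + 1). With 1 library per stage, differences are described by size, and no test was run. Ranks of a level are among loci above 0 in that library. All 10 loci were to be named, and of the 16 others the 2 most abundant and the largest excess and deficit per species. Members and lists were chosen with earlier results of these data known. Median-ratio scaling divides library 8 by its median ratio to library 7 over loci at 1 RPKM or more in both, and trimmed mean scaling by the mean log ratio of such contigs after removing 30% at each end. The locus step was tested on simulated data, with a fixed change put into loci averaging 10 RPKM or more. Changes of lower loci and the spread between seeds were not covered. Python 3.11.15, pandas 2.3.3, NumPy 2.4.6 and matplotlib 3.10.9 were used.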

Additional observations from a re-analysis of the deposited data

Results flagged for a closer look

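For GWD1 and DPE2 the libraries were at least 2-fold apart in opposite directions in the species, as were 3.81% of the 11054 loci at 1 RPKM or more in both. GWD1 and DPE2 were each 2-fold higher in library 8 of Jatropha and lower in that of Vernicia, as were 0.986% of these loci. The log2 difference of GWD1 was 1.40 in Jatropha and -1.18 in Vernicia, a gap of 2.58. That of DPE2 was 1.46 and -2.47, a gap of 3.94. Vernicia GWD1 was within 2-fold with median-ratio scaling (-0.75), trimmed mean scaling (-0.87), a pseudocount of 5 RPKM (-0.75) or the highest contig (-0.86). With median-ratio or trimmed mean scaling DPE2 alone of the members was 2-fold apart in opposite directions, against 4.12% and 4.11% of all shared loci. In the direction of DPE2 these shares were 1.16% and 1.25%. These gaps were not tested, as no stage has a second library. They compare like with like only if the numbers 7 and 8 stand for corresponding stages in the 2 trees, which no label states.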

How the results depend on the processing

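Of the 4 counts of loci past 2-fold, that of Jatropha loci lower in library 8 was 0 under all alternatives. Higher Jatropha loci numbered 4 as deposited, 6 with median-ratio scaling, trimmed mean scaling, or equal totals without storage globulins and oleosins (a scaling added after seeing the data), and 1 at 4-fold. Of all Jatropha loci, 7.15% were higher as deposited, 17.3%, 15.0% and 15.1% with these scalings in turn, and 2.8% at 4-fold. Lower Vernicia loci numbered 3 as deposited, 2 with the highest contig or a 10 RPKM filter, and 1 with a pseudocount of 5 RPKM, median-ratio scaling, trimmed mean scaling or a 4-fold threshold. Of all Vernicia loci, 18.8% were lower as deposited, 18.6% with the highest contig and 20.2% with the filter. The settings that left 1 member had 8.2%, 7.9%, 9.48% and 2.57% of all loci lower, in the same order. Higher Vernicia loci numbered 1 as deposited, 2 with median-ratio or trimmed mean scaling and 0 at 4-fold. The shares of all loci were 7.7%, 12.7%, 11.1% and 2.66% in that order. The cause was not tested. Median-ratio scaling raised all differences by up to 0.97 in Jatropha and 0.53 in Vernicia, and under it 17.3% and 12.7% of all loci were at least 2-fold higher. Of 144 differences of single loci under an alternative, 116 kept their sign and their side of 2-fold, 13 that were within 2-fold changed sign, 8 came to pass 2-fold and 7 no longer did. No difference past 2-fold changed sign. Of 36 ratios within a library, 33 moved by less than 1.5-fold with the same sign. The ratio of BAM1 to BAM3 and leaving out a replicate could not be run, for want of BAM3 contigs and of replicates. No paired analysis was possible because each stage has 1 library and no test was run. With read totals unknown, the counting error of contigs near 1 RPKM could not be given.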
